A study of Mus musculus with 26 samples.

Results

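The comparison described here asked how far early 2-cell (E2C) embryos lacking maternal KDM3A and KDM3B still differed from control embryos after a wild-type Kdm3a had been put back by injection. Its members were the 2 libraries of maternal double-knockout (mDKO) embryos labelled Kdm3aWT-injected and the 2 libraries of control embryos labelled mCherry-injected, which are 4 of the 26 libraries of the series. They were compared over the 10960 of 24412 listed genes that reached 1 TPM (a length-scaled share of all transcripts) in at least 2 of the 8 injected E2C libraries. The mDKO embryos came from oocytes of Zp3-Cre; Kdm3a f/f; Kdm3b f/f females fertilised in vitro with wild-type sperm. Zp3-Cre acts in growing oocytes, so the embryos lacked the maternal product and carried paternal wild-type copies of both genes. All embryos were labelled C57BL/6J, and each library pooled 12 to 20 of them. The other injected groups, 2 libraries each, were mDKO embryos labelled Kdm3aHA-injected and mDKO embryos labelled mCherry-injected. No source used here gives the meaning of HA, the injected molecule or the time of injection. Uninjected mDKO and control embryos at E2C and at the late 2-cell stage (L2C), and mature metaphase II (MII) oocytes, 2 libraries per genotype and stage, gave independent reference points. The genotype of the controls is given only as control, and the labels do not state whether paired libraries of a group had separate matings behind them. The p-values therefore measure only the spread between these libraries, which may be technical.

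KDM3A and KDM3B are oxygen-dependent demethylases that take methyl groups off lysine 9 of histone H3 (H3K9), a mark of repressed chromatin. An egg stores the RNA and protein it needs in advance, and the embryo starts to transcribe its own genes in a first wave around the early 2-cell stage, while stored maternal RNA is cleared. The first wave in mouse holds a set of multi-copy genes, Zscan4 among them, together with genes for the transcription factors that prepare the later wave. In pooled embryos, fewer cells of a type and less RNA per cell cannot be told apart, and TPM shows only the share a gene takes of all transcripts.

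The injected Kdm3a was the most obvious difference between the groups. Kdm3a stood at 4122 and 2315 TPM in Kdm3aWT-injected mDKO embryos, at 4043 and 3907 TPM in Kdm3aHA-injected mDKO embryos, at 0.262 and 0.411 TPM in mCherry-injected mDKO embryos and at 2.12 and 1.81 TPM in control embryos (gene at chr6:71588970-71632990, GRCm38). The 2 Kdm3aWT libraries differed in level, and both lay far above every library that received mCherry. Kdm3b, the other deleted demethylase gene, was not part of the injection by its label. It had 0.190 and 0.201 TPM with Kdm3aWT, against 0.710 and 0.722 TPM in controls, and was too low to be tested. The paralogue Jmjd1c had 1.72 and 1.54 TPM with Kdm3aWT and 2.54 and 2.26 TPM in controls, a log2 difference of -0.37 ± 0.16 that did not pass the test (adjusted p = 0.0921). The deficits described below are therefore those of embryos with abundant Kdm3a RNA and almost no Kdm3b RNA.

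The 2 control libraries stood apart from the rest of the E2C libraries. Of 3395 genes with at least 20 TPM in all 4 uninjected E2C libraries, 16 (0.471%) were more than 4-fold below the lowest of these in both Kdm3aWT libraries, 23 (0.677%) in both Kdm3aHA libraries, 14 (0.412%) in both libraries of mCherry-injected mDKO embryos and 97 (2.86%) in both control mCherry libraries. These 97 genes were GC-richer and shorter than the 3395 as a whole (median GC content 51.4% against 46.7%, median length 1950 against 2757 bases). With Kdm3aWT, 87 of the 97 were called higher than in controls, as were 17% of all genes tested. The 97 were picked for low values in the same 2 control libraries, so that call was nearly fixed by the choice. E2C libraries were made with SMART-Seq v4 or its successor SMART-Seq mRNA LP, and no source used here gives the kit of each library. Kit and group therefore cannot be told apart. Several of the genes called higher are given with their levels in uninjected embryos, and others are given without them. Replicates correlated at r between 0.987 and 0.993 across genes, and 9546 to 10284 genes reached 1 TPM per library.

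In all, 5107 of 10960 genes (46.6%) differed between Kdm3aWT-injected mDKO and control embryos. Of these, 1866 (17%) were higher and 3241 (29.6%) lower by limma on log2(TPM + 1), with Benjamini-Hochberg adjusted p under 0.05 over all genes tested. At 2-fold or more, 876 (7.99%) were higher and 895 (8.17%) lower. The median of all genes lay at -0.17 on the log2 scale, so small downward differences are to be read against that shift. With size-factor scaling the median moved to -0.00 and 2457 genes were higher against 2245 lower, and with the trend on GC content and length removed 2128 were higher against 2466 lower. The main scaling gave 36.5% of the called genes as higher, size factors 52.3% and the removed trend 46.3%. The mCherry-injected mDKO embryos, set against the same control libraries, had 2946 genes higher (26.9%) and 2195 lower (20%). The 2 comparisons share the control libraries, so their calls are given side by side only. Kdm3aWT-injected against mCherry-injected mDKO embryos gave 104 genes higher (0.949%) and 1184 lower (10.8%), and Kdm3aHA against mCherry gave 169 higher (1.54%) and 1018 lower (9.29%). In uninjected embryos, on libraries that take no part in the rescue comparison, 599 of 11140 genes were higher (5.38%) and 1001 lower (8.99%) in mDKO than in control at E2C. In MII oocytes 91 of 10765 were higher (0.845%) and 367 lower (3.41%).

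The lowest genes after Kdm3aWT injection were led by the Xlr3 and Xlr5 genes of the X chromosome, whose products are related to the synaptonemal complex protein SYCP3. Xlr3c (chrX:73254538-73265576) had 0.670 and 0.478 TPM in Kdm3aWT-injected mDKO embryos, 0.613 and 0.271 TPM with Kdm3aHA, 0 and 0.199 TPM with mCherry and 80.3 and 80.6 TPM in controls. All 6 mDKO libraries were below 1 TPM and far under both controls, with no overlap. Its log2 difference between Kdm3aWT and control was -5.70 ± 0.19 (adjusted p = 1.46e-06). Xlr3b followed with 1.81 and 1.53 TPM with Kdm3aWT against 111 and 106 TPM in controls, and it fell by 5.36 ± 0.19. It was also lower than in mCherry-injected mDKO embryos, which had 6.17 and 4.45 TPM (log2 difference -1.23, adjusted p = 0.00496). Xlr5c had 0 and 0.406 TPM with Kdm3aWT against 36.7 and 40.6 TPM in controls, and Xlr5b 2.03 and 0.377 TPM with Kdm3aWT against 29.5 and 23.9 TPM in controls. The 2 Kdm3aWT libraries differed several-fold from each other for Xlr5c and Xlr5b, and both stayed far under the controls.

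Of the 10 Xlr genes tested, 9 were lower with Kdm3aWT than in controls and none was higher, with a median of -2.09 and a lowest value of -5.70 for Xlr3c. In mCherry-injected mDKO embryos 9 of 10 were lower than in controls as well, with a median of -2.15. Between Kdm3aWT-injected and mCherry-injected mDKO embryos none was higher by limma (1 at an unadjusted p under 0.05) and 1, Xlr3b, was lower. The depth of the deficit varied within the family. Xlr3a, the most abundant member, had 189 and 263 TPM with Kdm3aWT against 484 and 533 TPM in controls and fell by 1.18 ± 0.14, and Xlr4c, at the shallow end of the genes that passed, fell by 0.66 ± 0.12. Xlr itself did not pass (-0.12 ± 0.34, adjusted p = 0.793), although it had passed in uninjected embryos (-2.01, adjusted p = 0.00314). In uninjected E2C embryos all 10 were lower in mDKO (median -2.40), and in MII oocytes 7 were lower. These copies are near-identical, so reads can be shared between them and single-copy values are uncertain.

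The promoters of Xlr3a, Xlr3b and Xlr3c are shown because copies with such different remaining levels begin with closely related sequence. Each runs from 250 bases before to 50 after a RefSeq transcript start, which for Xlr3b and Xlr3c lies inside the span given for the gene, on GRCm38.p6: Xlr3a at chrX:73097046-73097345 (minus strand), Xlr3b at chrX:73191929-73192228 (plus strand) and Xlr3c at chrX:73265341-73265640 (minus strand). Capitals mark the longest run that all 3 share, 58 bases.
Xlr3a: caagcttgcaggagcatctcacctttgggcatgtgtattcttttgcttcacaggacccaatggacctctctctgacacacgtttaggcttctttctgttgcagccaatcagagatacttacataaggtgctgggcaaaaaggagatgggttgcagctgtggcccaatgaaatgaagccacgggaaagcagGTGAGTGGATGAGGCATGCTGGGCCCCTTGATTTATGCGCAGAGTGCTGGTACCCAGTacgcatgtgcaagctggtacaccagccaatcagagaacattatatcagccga
Xlr3b: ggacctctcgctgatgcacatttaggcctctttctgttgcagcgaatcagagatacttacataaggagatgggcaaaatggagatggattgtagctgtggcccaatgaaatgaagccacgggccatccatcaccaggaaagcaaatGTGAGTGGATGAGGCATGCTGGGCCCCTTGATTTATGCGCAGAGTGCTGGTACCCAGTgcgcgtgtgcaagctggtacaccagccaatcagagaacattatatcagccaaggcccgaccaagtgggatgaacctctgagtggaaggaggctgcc
Xlr3c: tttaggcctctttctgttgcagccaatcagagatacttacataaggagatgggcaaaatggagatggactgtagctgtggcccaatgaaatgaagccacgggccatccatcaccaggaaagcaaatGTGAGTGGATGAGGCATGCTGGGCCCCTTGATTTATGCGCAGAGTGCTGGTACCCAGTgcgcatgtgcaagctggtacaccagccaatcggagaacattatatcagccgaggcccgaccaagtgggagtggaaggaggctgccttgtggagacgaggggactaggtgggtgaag
Xlr3a, which kept the most transcript, and Xlr3b and Xlr3c, which kept the least, thus carry this run in common.

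**Figure D1:**
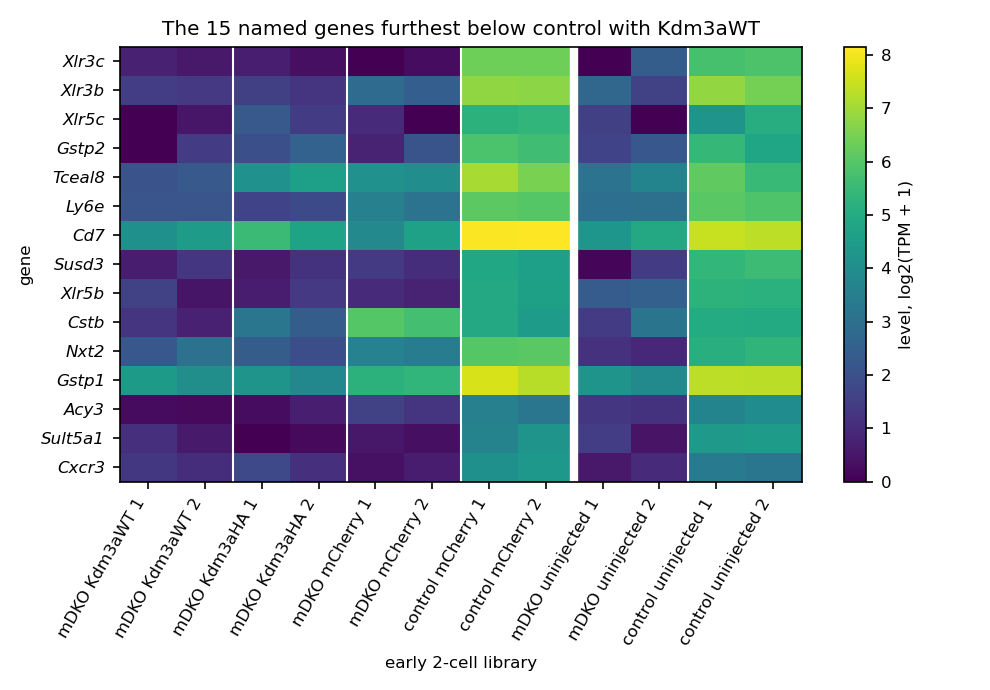
Heat map of log2(TPM + 1) in the 8 injected and the 4 uninjected E2C libraries for the 15 lowest named genes. The genes run from Xlr3c (log2 difference -5.70) to Cxcr3 (-3.02). Each column is 1 library, and the genes were chosen for having both Kdm3aWT libraries below both injected control libraries.

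Outside the Xlr family, the lowest genes included glutathione transferases and surface proteins. Gstp1 and Gstp2, neighbouring glutathione transferases of chromosome 19, were both far below control. Gstp2 had 0 and 1.64 TPM with Kdm3aWT against 56.5 and 48.96 TPM in controls. Gstp1 had 20.97 and 15.1 TPM with Kdm3aWT against 201 and 154 TPM in controls. Gstp1 fell by 3.23 ± 0.20 (adjusted p = 1.57e-05) and was also below its level in mCherry-injected mDKO embryos (36.5 and 39.97 TPM, log2 difference -1.06, adjusted p = 0.013). The 2 genes are near-identical and may share reads. Tceal8, an X-linked gene of the transcription elongation factor A-like family (chrX:136168984-136172251), had 3.28 and 3.79 TPM with Kdm3aWT, 16.6 and 23.2 TPM with Kdm3aHA, 16.4 and 14.9 TPM with mCherry and 136 and 89.8 TPM in controls. Its Kdm3aWT libraries were the lowest of all 8, and it fell by 4.62 ± 0.22 against control and by a further step against mCherry (-1.87, adjusted p = 0.00166). Ly6e, which encodes a GPI-anchored surface protein, had 3.47 and 3.45 TPM with Kdm3aWT against 67.9 and 62.7 TPM in controls, and Cd7, an immunoglobulin-type surface protein best known from lymphocytes, 16.1 and 21.03 TPM with Kdm3aWT against 272 and 284 TPM in controls. Ly6e fell by 3.89 ± 0.18 and Cd7 fell by 3.84 ± 0.31.

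Some of the lowest genes were already deficient in the oocyte. Susd3, a sushi-domain membrane protein gene, had 0.570 and 1.43 TPM with Kdm3aWT against 28.8 and 23.3 TPM in controls (-3.78 ± 0.29, adjusted p = 3.56e-05). In MII oocytes it had 4.36 and 8.91 TPM in mDKO against 203 and 223 TPM in control oocytes (log2 difference -4.87, adjusted p = 0.00484). Cxcr3, an X-linked chemokine receptor gene, had 1.51 and 1.11 TPM with Kdm3aWT against 16.1 and 19.5 TPM in controls, and 4.51 and 2.76 TPM in mDKO against 81.4 and 92.6 TPM in control MII oocytes (log2 difference -4.27, adjusted p = 0.00343). In MII oocytes the mDKO and control values of neither gene overlapped. Nxt2, an X-linked gene for an mRNA export factor, fell by 3.39 ± 0.27, the aminoacylase gene Acy3 fell by 3.15 ± 0.23 and the sulfotransferase gene Sult5a1 fell by 3.10 ± 0.25. Of the 15 lowest genes, all 15 were also lower in uninjected mDKO E2C embryos, against 8.86% of all genes tested in both. In MII oocytes 11 of the 13 tested were lower, against 3.18% of all. The X chromosome holds 7 of the 15, against 3.81% of all genes tested with a known position. Xlr3c, Xlr3b, Xlr5c and Xlr5b, copies of 1 family, are among these 7.

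Cstb, which encodes the cathepsin inhibitor cystatin B, was above control with mCherry and below it with Kdm3aWT. It had 1.39 and 0.668 TPM with Kdm3aWT, 8.24 and 4.34 TPM with Kdm3aHA, 63.8 and 52.2 TPM with mCherry and 29.4 and 21.9 TPM in controls. The mCherry-injected mDKO libraries were the highest and the Kdm3aWT libraries the lowest, with no overlap between any of the 4 groups. Cstb fell by 3.73 ± 0.29 against control, by 4.88 against mCherry-injected mDKO (adjusted p = 8.11e-05) and by 1.81 against Kdm3aHA (adjusted p = 0.0214), while mCherry-injected mDKO embryos were above control by 1.15 (adjusted p = 0.011). In uninjected E2C embryos it was lower in mDKO (1.75 and 7.84 TPM) than in control (31.3 and 30.6 TPM; log2 difference -2.70, adjusted p = 0.00736).

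Genes that were low in uninjected mDKO embryos were mostly still low with Kdm3aWT. In uninjected E2C embryos 663 of the genes lower in mDKO (5.95% of those tested) were lower by 2-fold or more. Of these 663 genes, 594 were high enough to be tested in the injected embryos and 69 were not. With Kdm3aWT, 447 of the 594 (75.3%) were lower than control, 13 were higher and 134 did not pass, against 29.6% lower among all genes. Their median was -1.10, against -0.17 for all genes and -1.42 for the same 594 genes in the uninjected embryos. Set against the same control libraries, mCherry-injected mDKO embryos had 401 of the 594 lower and 30 higher, with a median of -1.01. Between Kdm3aWT-injected and mCherry-injected mDKO embryos, the median was -0.09, with 40 genes higher (6.73%) and 56 lower (9.43%), against 0.949% higher and 10.8% lower among all genes. With Kdm3aHA in place of Kdm3aWT these last numbers were 14 higher (2.36%) and 78 lower (13.1%), at a median of -0.17, against 1.54% and 9.29% of all genes. Of the 134 genes that did not pass, 55 had a 95% interval within 2-fold of control and 79 an interval that reached past 2-fold. The filter can be passed through the 2 control libraries alone, and genes that did so could hardly be called other than lower. Without control replicate 1 or 2, 535 or 534 genes of the set were high enough to be tested, against 591 to 594 without any other single injected library. The 75.3% includes such genes, and so can the shares for parts of this set given below. The set depends on single libraries: the 1600 calls without injection became 282 without control replicate 2, 363 without control replicate 1 and 3214 without mDKO replicate 2.

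The remaining deficit covered transcripts newly present at E2C as well as stored ones. Among the 594 genes, 193 were under 1 TPM in control MII oocytes and newly present at E2C, and 146 of them (75.6%) were lower with Kdm3aWT than in controls, at a median of -1.14. This sorting sets MII libraries made with TruSeq beside E2C libraries made with SMART-Seq kits, so the kit and the stage cannot be told apart in it. These newly present genes also had 34 members (17.6%) above mCherry-injected mDKO embryos and 10 below, while with Kdm3aHA 3 were above and 20 below. Of 99 genes present in oocytes and higher at E2C by at least 2 on the log2 scale, 81 (81.8%) were lower, at a median of -1.29, and of 244 stored genes without such a difference 178 (73%) were lower, at a median of -1.02. Genes low at both stages gave 42 of 58 (72.4%). Newly present genes made up 20.1% of the 895 genes that were at least 2-fold lower with Kdm3aWT, against 5.11% of all genes tested and 1.83% of the 876 at least 2-fold higher. Stored genes made up 42.6% of those lower, 73.1% of all tested and 87.3% of those higher.

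**Figure D2:**
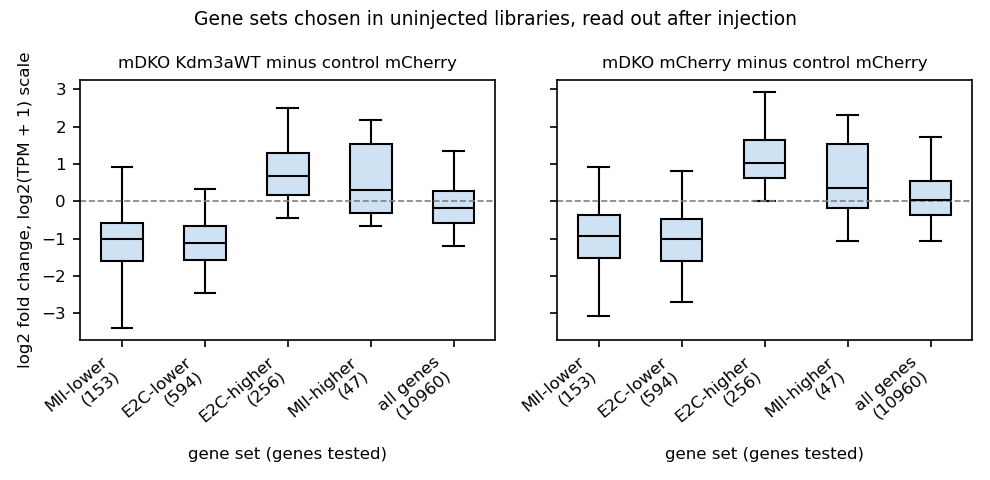
Distribution of log2 differences in the injected E2C embryos for the genes at least 2-fold lower or higher in uninjected mDKO E2C embryos or MII oocytes, beside all genes tested. The E2C-lower genes centre at -1.10 with Kdm3aWT and at -1.01 with mCherry, both against control, and all genes centre at -0.17 and 0.04.

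Genes already low before fertilisation had a larger median deficit than the rest of the set, a difference that was not tested. Of the 594 genes, 91 were also lower in mDKO MII oocytes. With Kdm3aWT, 79 of the 91 (86.8%) were lower than control at a median of -1.42, and 368 of the other 503 (73.2%) at a median of -1.05. The 503 include genes too low in MII oocytes to be tested there, so they are not all genes found unchanged in oocytes. Of the 220 genes (2.04%) at least 2-fold lower in mDKO oocytes, 153 could be tested in the injected embryos. With Kdm3aWT 115 of these (75.2%) were lower, 10 (6.54%) were higher and 28 did not pass, at a median of -1.02. Among all genes 29.6% were lower and 17% higher. Without either control replicate 128 of the 220 could be tested, so this share, too, includes genes that passed the filter through the controls alone. The 47 genes (0.437%) at least 2-fold higher in mDKO oocytes gave 23 higher (48.9%), 10 lower (21.3%) and 14 not passed, against the same 17% higher and 29.6% lower.

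The Zscan4 genes, a cluster on chromosome 7 that encodes zinc-finger proteins of the early 2-cell embryo, lay between the control and the mCherry-injected mDKO embryos. Zscan4f (chr7:11397915-11402318) had 93.01 and 137 TPM with Kdm3aWT, 37.9 and 40.7 TPM with Kdm3aHA, 49.4 and 57.4 TPM with mCherry and 411 and 515 TPM in controls. The Kdm3aWT libraries stood above all 4 other mDKO libraries and under both controls. Zscan4f fell by 2.02 ± 0.19 against control (adjusted p = 8.61e-05), and was higher than with mCherry by 1.07 (adjusted p = 0.00858). Zscan4a had 40.7 and 45.9 TPM with Kdm3aWT, 9.95 and 14.6 TPM with Kdm3aHA, 10.7 and 13.8 TPM with mCherry and 169 and 167 TPM in controls, the widest step of the family between Kdm3aWT and mCherry (1.75 ± 0.19, adjusted p = 0.00109). It still fell by 1.94 ± 0.19 against control (adjusted p = 1.10e-04).

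All 5 Zscan4 genes tested were lower with Kdm3aWT than in controls, at a median of -1.57, and all 5 were higher than with mCherry, at a median of 1.23. With mCherry the median against control was -2.88, and in uninjected E2C embryos all 5 were lower in mDKO at a median of -3.23. None of the 5 passed between Kdm3aHA and mCherry by limma (2 were lower at an unadjusted p under 0.05), and the difference of Zscan4a was -0.01 ± 0.19 there (adjusted p = 0.99). The direct comparison of Kdm3aWT with Kdm3aHA gave higher levels with Kdm3aWT for Zscan4a (1.76, adjusted p = 0.0093), Zscan4b (1.40, adjusted p = 0.0147), Zscan4d (1.02, adjusted p = 0.037) and Zscan4f (1.497, adjusted p = 0.0146). For Zscan4c the difference was 1.66 ± 0.21 (adjusted p = 0.0146). Across all genes, 145 (1.32%) were higher and 216 (1.97%) lower with Kdm3aWT than with Kdm3aHA. The copies can share reads, so the values of single copies are uncertain.

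**Figure D3:**
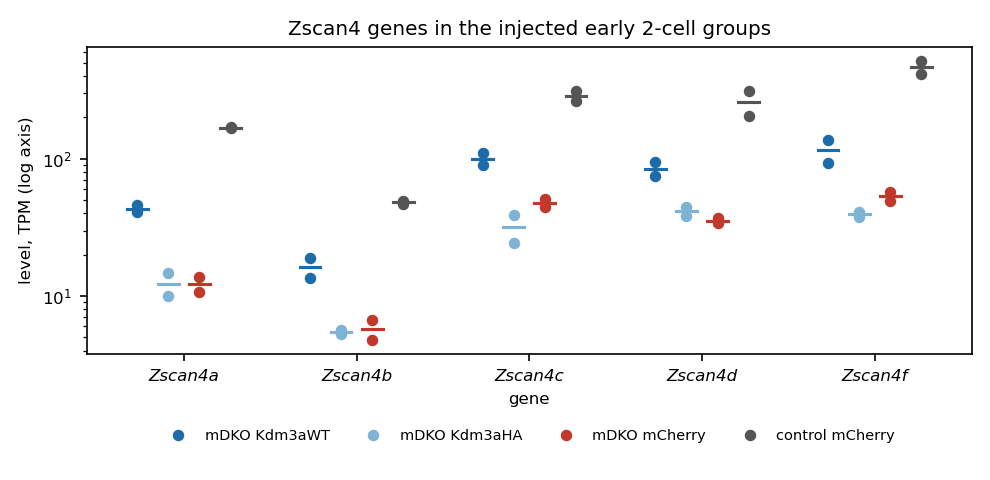
TPM of the 5 tested Zscan4 genes in the 8 injected E2C libraries, 1 point per library. For each gene the Kdm3aWT libraries lie between the control libraries above and the mCherry-injected mDKO libraries below.

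The promoters of Zscan4c, Zscan4d and Zscan4f are shown because these copies lay between the groups together. They run from 250 bases before to 50 after the RefSeq start on GRCm38.p6: Zscan4c at chr7:11005495-11005794 (plus strand), Zscan4d at chr7:11166099-11166398 (minus strand) and Zscan4f at chr7:11397665-11397964 (plus strand). Capitals mark the longest run that all 3 share, 55 bases.
Zscan4c: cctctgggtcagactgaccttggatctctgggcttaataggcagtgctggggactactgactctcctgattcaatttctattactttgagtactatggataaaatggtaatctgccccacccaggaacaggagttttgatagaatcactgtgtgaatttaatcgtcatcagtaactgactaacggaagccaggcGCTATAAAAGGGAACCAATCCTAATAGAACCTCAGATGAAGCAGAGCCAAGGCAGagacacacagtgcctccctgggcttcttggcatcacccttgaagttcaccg
Zscan4d: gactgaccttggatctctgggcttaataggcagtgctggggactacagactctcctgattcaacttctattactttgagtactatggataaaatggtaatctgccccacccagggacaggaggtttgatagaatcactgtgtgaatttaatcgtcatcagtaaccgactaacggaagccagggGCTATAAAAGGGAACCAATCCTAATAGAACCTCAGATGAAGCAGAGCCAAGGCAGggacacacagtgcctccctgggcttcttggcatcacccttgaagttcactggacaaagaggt
Zscan4f: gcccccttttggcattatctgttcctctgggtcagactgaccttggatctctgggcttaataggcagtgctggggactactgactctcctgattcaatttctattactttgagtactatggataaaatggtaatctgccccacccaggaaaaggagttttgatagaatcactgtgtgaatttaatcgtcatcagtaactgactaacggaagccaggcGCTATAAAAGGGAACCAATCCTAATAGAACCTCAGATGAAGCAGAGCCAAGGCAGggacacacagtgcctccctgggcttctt
All 3 copies were lower than control and higher than mCherry, as given above.

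Other genes of the early 2-cell wave were lower than control too, and 15 of them were above mCherry. Of 46 tested, 37 (80.4%) were lower with Kdm3aWT than in controls and 3 (6.52%) higher, at a median of -1.08, against 29.6% and 17% of all genes. Compared with mCherry-injected mDKO embryos, 15 were higher and 3 lower, at a median of 0.26, where 0.949% of all genes were higher and 10.8% lower. Kdm3aHA against mCherry gave 2 higher and 5 lower, where 1.54% of all genes were higher and 9.29% lower. Zfp352, a zinc-finger gene, had 45.2 and 46.00 TPM with Kdm3aWT, 26.6 and 27.4 TPM with Kdm3aHA, 25.5 and 22.6 TPM with mCherry and 85.1 and 93.6 TPM in controls. Its Kdm3aWT libraries lay above the other mDKO libraries and under both controls. It fell by 0.95 ± 0.11 against control (adjusted p = 2.80e-04) and was higher than with mCherry by 0.90 (adjusted p = 0.00219). Usp17lb, a deubiquitinase gene of a multi-copy family, had 47.4 and 36.9 TPM with Kdm3aWT, 17.6 and 16.3 TPM with mCherry and 94.2 and 90.3 TPM in controls, in the same order.

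Members of the wave differed in where the Kdm3aWT libraries lay. Gm2016, a predicted gene of the 2-cell embryo, stayed at 19.4 and 28.7 TPM with Kdm3aWT, near the 21.1 and 22.2 TPM with mCherry and far below the 161 and 199.5 TPM of controls (log2 difference from control -2.87 ± 0.20, from mCherry 0.12, adjusted p = 0.73). Gm12794 (-2.68) and Gm21319 (-2.53) were also more than 4-fold below control, and Gm21319 was above mCherry by 1.25 (adjusted p = 0.0337). Cphx2, a homeobox gene of a multi-copy cluster, had 25.8 and 87.2 TPM with Kdm3aWT against 271 and 247 TPM in controls, and 164 and 231 TPM with Kdm3aHA. Its 2 Kdm3aWT libraries were far apart, and the difference of -2.42 ± 0.44 carries that spread (adjusted p = 0.00269). Spz1, a bHLH-zipper gene first described in testis, is an example at the other end: 30.98 and 20.3 TPM with Kdm3aWT, 8.05 and 10.3 TPM with mCherry and 17.3 and 22.8 TPM in controls, above mCherry by 1.37 (adjusted p = 0.00681) and not distinguished from control (0.32 ± 0.22, adjusted p = 0.269). Spz1, Zfp352 and Usp17lb were chosen for the text after their values were seen.

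Among regulators of genome activation, Dppa2, Dppa4 and Dux were lower than control, and lower than with mCherry as well, as were 10.8% of all genes against mCherry. DPPA2 and DPPA4 act together at CpG-rich promoters and are needed for full expression of Dux, a multi-copy homeobox gene that activates Zscan4 and other early 2-cell genes. Dppa2 (chr16:48310274-48319513) had 37.8 and 51.4 TPM with Kdm3aWT, 71.1 and 60.1 TPM with Kdm3aHA, 66.1 and 65.3 TPM with mCherry and 164 and 172 TPM in controls. Its Kdm3aWT libraries were the lowest of the 8. Dppa2 fell by 1.91 ± 0.15 against control (adjusted p = 4.42e-05) and by 0.57 against mCherry-injected mDKO embryos (adjusted p = 0.0448). Dppa4 had 0.899 and 1.88 TPM with Kdm3aWT against 4.85 and 3.48 TPM with mCherry and 10.98 and 8.36 TPM in controls, and fell by 2.18 ± 0.25 against control and by 1.13 against mCherry (adjusted p = 0.0228). Dux had 6.25 and 6.69 TPM with Kdm3aWT, 7.46 and 6.51 TPM with Kdm3aHA, 13.9 and 15.2 TPM with mCherry and 19.97 and 20.8 TPM in controls. Both Kdm3a-injected groups were about level and below mCherry: Dux fell by 1.52 ± 0.14 against control, by 1.06 with Kdm3aWT against mCherry (adjusted p = 0.00253) and by 0.96 with Kdm3aHA against mCherry (adjusted p = 0.00323). Dux, too, was named after its values were seen.

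Of 29 tested regulators, 14 were lower and 3 higher with Kdm3aWT than in controls, at a median of -0.45, against 29.6% lower and 17% higher among all genes. The number lower was 8 without Kdm3aWT replicate 1 and 9 without control replicate 2, and size factors gave 9 lower and 5 higher. In uninjected E2C embryos 2 were lower, Dppa2 and Dppa4, where 8.86% of all genes tested in both were lower. Against mCherry-injected mDKO embryos 3 of the 29 were lower and 1 was higher, where 10.8% of all genes were lower and 0.949% higher. The number lower was thus near the share of all genes. The 3 higher regulators were Smarcb1, a subunit of the SWI/SNF remodeller, Hsf1, the heat-shock factor, and Nelfa, a subunit of the pausing complex NELF. Smarcb1 had 90.03 and 80.2 TPM with Kdm3aWT against 31.5 and 27.6 TPM in controls, but its uninjected levels were 59.3 and 54.96 TPM in mDKO and 52.5 and 49.9 TPM in control, so that here the injected controls are the libraries that differ from the rest. Hsf1 had 62.9 and 63.1 TPM with Kdm3aWT, against 23.3 and 23.7 TPM in injected controls, and 68.9 and 51.3 TPM in mDKO against 52.8 and 46.04 TPM in control embryos without injection. The Obox homeobox family, maternal and zygotic factors of genome activation, split: of 8 tested, Crxos (-1.18), Obox3 (-1.09) and Obox6 (-1.07) were lower and Obox5 (0.45), Obox1 (0.38) and Obox2 (0.36) higher, at a median of -0.11 that turned to 0.07 with size factors and 0.11 with the GC and length trend removed. The calls of Crxos and Obox6 were lost without Kdm3aWT replicate 1 and without control replicate 2. Obox3 had 11.96 and 9.83 TPM with Kdm3aWT, 6.66 and 5.87 TPM with mCherry and 25.03 and 23.4 TPM in controls, and was above mCherry by 0.71 (adjusted p = 0.0318).

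Germline genes were lower than control, and none passed the test against mCherry-injected mDKO embryos. Of 33 tested, 19 (57.6%) were lower and 3 (9.09%) higher with Kdm3aWT than in controls, at a median of -0.55, against 29.6% and 17% of all genes. Against mCherry-injected mDKO embryos limma called 0 in either direction (1 was higher and 6 lower at an unadjusted p under 0.05). Without control replicate 2 the number lower was 12. Tex19.1, which restrains retrotransposons in germ cells (chr11:121146143-121148314), had 16.6 and 17.8 TPM with Kdm3aWT, 15.2 and 16.3 TPM with Kdm3aHA, 20.9 and 25.04 TPM with mCherry and 109 and 102 TPM in controls. All 6 mDKO libraries lay far below both controls and close to each other. Tex19.1 fell by 2.55 ± 0.13 (adjusted p = 5.33e-06), and in MII oocytes it was already low at 36.5 and 39.05 TPM in mDKO against 289.7 and 268 TPM in control. Sycp3, a lateral-element protein of the synaptonemal complex (chr10:88459587-88473236), had 73.2 and 93.6 TPM with Kdm3aWT against 386 and 404 TPM in controls and fell by 2.24 ± 0.12. Tex15, needed for silencing in male germ cells, fell by 1.97 ± 0.16, and Fkbp6, a co-chaperone of the piRNA pathway, fell by 1.93 ± 0.20. Ddx4, the vasa helicase of the germline, went the other way and rose by 0.60 (adjusted p = 0.00603), as it did in uninjected embryos (0.72, adjusted p = 0.0311).

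The imprinted gene Phlda2, a maternally expressed growth regulator of the placenta, had 11.3 and 20.7 TPM with Kdm3aWT, 4.78 and 7.46 TPM with mCherry and 67.9 and 37.2 TPM in controls. The Kdm3aWT libraries lay above mCherry and under both controls, and it fell by 1.65 ± 0.36 against control (adjusted p = 0.00575), while the step above mCherry of 1.22 ± 0.36 did not pass (adjusted p = 0.0601). Airn (-1.10), the long non-coding RNA of the Igf2r domain, Usp29 (-0.97) and Impact (-0.90) also fell. Of 24 imprinted genes tested, 5 (20.8%) were lower and 3 (12.5%) higher, against 29.6% and 17% of all genes, and the median of the 24 was -0.02.

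A small number of genes that had been low without injection lay near control level with Kdm3aWT, and those named here were chosen for that closeness. Among members of the E2C-lower set, the 5 whose 95% intervals lay closest to no difference were Plk2, a polo-like kinase (-0.10, interval -0.42 to 0.22), Pax2, a paired-box factor (-0.01, interval -0.42 to 0.40), Pglyrp1, a peptidoglycan-recognition protein (-0.03, interval -0.44 to 0.37), Ergic1 (-0.12, interval -0.47 to 0.24) and the ribosome-biogenesis gene Rrp1 (-0.01, interval -0.48 to 0.45). Pglyrp1 had 25.6 and 18.2 TPM with Kdm3aWT, 14.6 and 15.9 TPM with mCherry and 21.4 and 22.9 TPM in controls, with Kdm3aWT and control values overlapping. Plk2 had 9.03 and 10.1 TPM with Kdm3aWT, 8.58 and 8.37 TPM with mCherry and 10.7 and 9.96 TPM in controls, so it lay close to control in every injected group, although uninjected embryos had 3.81 and 5.23 TPM in mDKO and 13.3 and 9.55 TPM in control. The 5 such genes of the MII-lower set were Tmem171 (-0.11), Abcb1b (-0.07), Prmt3 (-0.03), Rnf182 (-0.06) and Stx7 (-0.18). With size-factor scaling all 10 of these small differences turned positive.

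Ribosomal protein genes were lower with Kdm3aWT than in controls more often than genes as a whole, a share that was not tested. Of 79 cytosolic ribosomal protein genes, 34 were lower and 6 higher than in controls with Kdm3aWT, against 29.6% lower and 17% higher among all genes, at a median of -0.38 (28 lower and 6 higher with size factors, median -0.19). Against the same controls, mCherry-injected mDKO embryos had 10 lower and 20 higher, at a median of 0.14, where 20% of all genes were lower and 26.9% higher. Between Kdm3aWT and mCherry in mDKO embryos 37 were lower and none higher by limma (1 at an unadjusted p under 0.05), at a median of -0.53, and Kdm3aHA against mCherry gave 27 lower and 1 higher, at -0.40. Among all genes 10.8% were lower and 0.949% higher with Kdm3aWT, and 9.29% lower and 1.54% higher with Kdm3aHA. Rpl24, a protein of the large subunit, had 17.3 and 12.3 TPM with Kdm3aWT, 25.1 and 21.7 TPM with Kdm3aHA, 38.1 and 29.8 TPM with mCherry and 46.3 and 48.5 TPM in controls. The 4 groups were ordered without overlap, and Rpl24 fell by 1.63 ± 0.18 against control and by 1.15 against mCherry (adjusted p = 0.00609). Rpl17 had 87.5 and 91.1 TPM with Kdm3aWT, 147 and 189 TPM with Kdm3aHA, 169.6 and 174 TPM with mCherry and 235 and 240.1 TPM in controls, again lowest with Kdm3aWT and highest in controls. Rps4x, the X-linked small-subunit gene, fell by 1.44 ± 0.20. Rps2 went the other way (2.46), with 267 and 197 TPM with Kdm3aWT against 43.9 and 38.2 TPM in controls.

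Of 44 proteasome genes, 16 (36.4%) were lower and 8 (18.2%) higher than in controls with Kdm3aWT at a median of -0.12, near the shares of all genes, and size factors gave 13 lower and 10 higher at a median of 0.04. Against mCherry 19 were lower and 1 was higher, where 10.8% of all genes were lower and 0.949% higher. Psmc1, an ATPase subunit of the proteasome's regulatory particle, had 52.5 and 55.8 TPM with Kdm3aWT, 92.7 and 88.6 TPM with Kdm3aHA, 120.2 and 117 TPM with mCherry and 135 and 149 TPM in controls, and fell by 1.37 ± 0.10 against control. Here too the Kdm3aWT libraries were the lowest and the mCherry libraries lay nearer to control. Of 61 ribosome-biogenesis genes, 21 (34.4%) were lower and 6 (9.84%) higher than in controls, against 29.6% and 17% of all genes. Their median was -0.23, with Nop16 (-1.56) at the low end and Imp3 (2.66) at the high end. In mCherry-injected mDKO embryos the count against control was 8 lower and 18 higher, where 20% of all genes were lower and 26.9% higher. Of 46 translation initiation genes, 9 were lower and 7 higher, neither share above that of all genes, and size factors gave 4 lower and 9 higher at a median of 0.09.

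**Figure D4:**
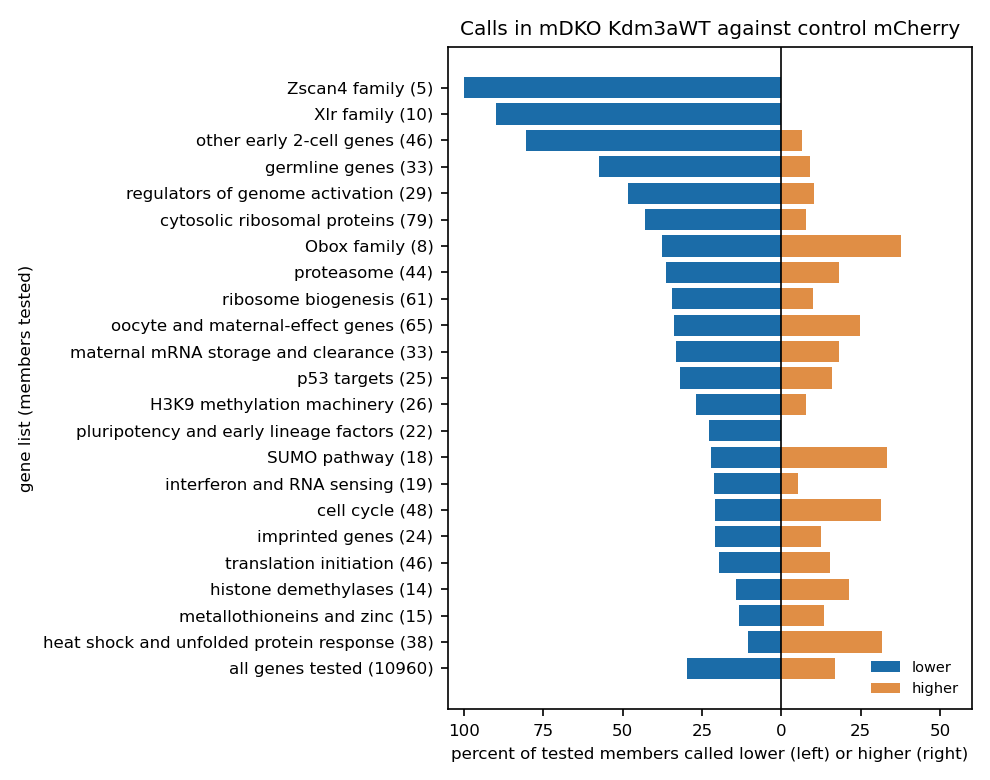
Share of tested genes in each list called lower or higher with Kdm3aWT than in control embryos, with the share over all genes (29.6% lower, 17% higher) for comparison. The Zscan4 and Xlr lists have the largest lower shares (5 of 5 and 9 of 10), and no list member of either was higher.

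Genes higher with Kdm3aWT than in controls were mostly stored maternal transcripts, and 85 of the 876 at 2-fold or more were among the 97 genes far below the uninjected level in both control libraries. Pfn1, which encodes the actin-binding protein profilin (chr11:70651844-70656799), had 686 and 642 TPM with Kdm3aWT, 620.4 and 751 TPM with Kdm3aHA, 636 and 611 TPM with mCherry and 33.8 and 33.6 TPM in controls. Uninjected embryos had 527 and 507 TPM in mDKO and 207 and 176 TPM in control. Both injected controls thus lay well under both uninjected controls, and the log2 difference of 4.26 ± 0.10 (adjusted p = 1.98e-07) compares with 1.44 without injection. Scand1, a SCAN-domain gene, had 65.2 and 38.3 TPM with Kdm3aWT and was listed at 0 in both injected control libraries, and had 98.2 and 89.2 TPM in mDKO and 71.4 and 80.1 TPM in control without injection. Emc6, a subunit of a membrane-insertion complex of the endoplasmic reticulum, had 62.6 and 54.7 TPM with Kdm3aWT against 3.05 and 3.31 TPM in injected controls, and 99.6 and 88.4 TPM in mDKO against 112 and 114 TPM in uninjected controls. Of the 15 highest genes, 11 were among those far below the uninjected level in the control mCherry libraries. Those 97 genes were picked on the control libraries that also enter these differences, so the overlaps are no separate support. Of the 15, 6 were also higher in uninjected mDKO embryos, against 5.57% of all genes tested in both. The median GC content of the 15 was 57.9%, against 48.0% over all genes tested. What the control libraries contribute to these 15 differences was not tested.

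GC content moved with the direction of the calls in the injected embryos. In the 10% of genes with the highest GC content (56.4 to 71.3%), 32.2% were higher and 12.1% lower with Kdm3aWT than in controls, at a median of 0.21. In the 10% with the lowest GC content (31 to 40.7%), 11.6% were higher and 37.3% lower, at a median of -0.27. In the uninjected E2C comparison the same groups of genes had 4.84% higher and 6.75% lower, and 6.56% higher and 6.96% lower. The part of GC content in the higher and lower calls was not tested beyond the removal of its trend, given above.

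Oocyte genes among the higher ones are set here beside their uninjected levels. H1foo, the linker histone of the oocyte (chr6:115944931-115950242), had 1773 and 1667 TPM with Kdm3aWT, 1799 and 1687 TPM with mCherry and 409 and 468 TPM in controls, and 1474 and 1456 TPM in mDKO against 389 and 435 TPM in control without injection. All mDKO libraries were several-fold above all controls. It rose by 1.97 ± 0.14 (adjusted p = 2.64e-05), and by 1.83 without injection, and between Kdm3aWT and mCherry the difference was -0.02 ± 0.14 (interval -0.34 to 0.30). Zar1, a maternal RNA-binding protein needed for the first divisions, had 219 and 202 TPM with Kdm3aWT against 28.2 and 27.3 TPM in controls and 403 and 287 TPM in mDKO against 136 and 109 TPM in control without injection, so the injected controls were again the lowest (2.88 and 1.47). Khdc3, a member of the subcortical maternal complex, gave 3.73 and 1.01 on the same 2 comparisons. Zbed3, another member of that complex, gave 2.05 here but did not pass without injection (0.25, adjusted p = 0.202).

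**Figure D5:**
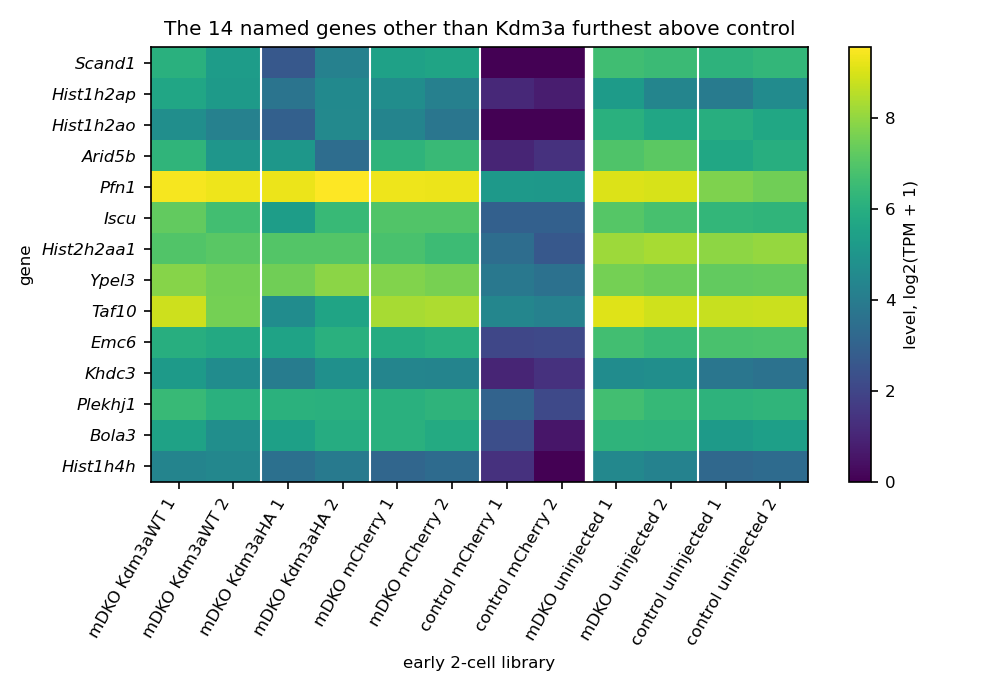
Heat map of log2(TPM + 1) in the 8 injected and the 4 uninjected E2C libraries for the 15 highest named genes, leaving out Kdm3a. Each column is 1 library. Pfn1 had 686 and 642 TPM with Kdm3aWT against 33.8 and 33.6 TPM in injected controls, and Scand1 is listed at 0 in both injected control libraries.

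Of 65 oocyte and maternal-effect genes, 16 (24.6%) were higher and 22 (33.8%) lower with Kdm3aWT than in controls, against 17% and 29.6% of all genes. Their median of -0.10 turned to 0.10 with size factors (23 higher, 17 lower). In uninjected embryos 13 were higher and 4 lower, where 5.57% of all genes tested in both were higher and 8.86% lower. The lower ones included Dnmt1, the maintenance DNA methyltransferase (-0.82), which was also lower than with mCherry (-1.03, adjusted p = 0.00156) and did not pass the test without injection (0.44, adjusted p = 0.131). Of the 273 genes (2.45%) at least 2-fold higher in uninjected mDKO E2C embryos, 256 were tested, and with Kdm3aWT 153 (59.8%) were higher, 12 lower and 91 did not pass, at a median of 0.69, against 17% higher among all genes. In mCherry-injected mDKO embryos 199 of the 256 were higher, at a median of 1.02, against 26.9% of all genes. Between Kdm3aWT and mCherry the median of these genes was -0.37, with 3 higher and 60 lower, where all genes had a median of -0.19, with 0.949% higher and 10.8% lower. Members shared by the 2 kinds of experiment included Mt1, a zinc-binding metallothionein, with 294 and 318 TPM with Kdm3aWT against 86.6 and 82.7 TPM in controls (1.84; 2.25 without injection). Sumo2, a SUMO modifier gene, had 149 and 159 TPM with Kdm3aWT, 237 and 215 TPM with mCherry and 54.9 and 51.4 TPM in controls (1.52; 2.32 without injection), and it was lower than with mCherry (log2 difference -0.55 ± 0.13, adjusted p = 0.0329).

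Of 38 heat-shock and unfolded-protein-response genes, 12 (31.6%) were higher and 4 (10.5%) lower with Kdm3aWT, at a median of 0.28, against 17% higher and 29.6% lower among all genes. In uninjected embryos 11 were higher and 2 lower, where 5.57% of all genes tested in both were higher and 8.86% lower. Creld2 (2.09), Sdf2l1 (1.89) and Pdia3 (1.72), which serve protein folding in that compartment, rose, and without injection they were higher by 0.93, 0.94 and 1.71. The cytosolic chaperones Hsp90aa1 (-0.83), Hspa8 (-0.48) and Dnaja1 (-0.92) fell, as did Ddit3 (-1.22), a stress-induced transcription factor. In mCherry-injected mDKO embryos 22 of the 38 were above control and 6 below, where 26.9% of all genes were above and 20% below. Between Kdm3aWT and mCherry 8 were lower and none higher by limma (0 at an unadjusted p under 0.05), where 10.8% of all genes were lower and 0.949% higher.

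Across comparisons on other libraries, the genes lower with Kdm3aWT were set against the lower genes of each. Of 924 genes lower in uninjected mDKO E2C embryos and tested in both, 681 were also lower here, which is 73.7% of the uninjected list and 21.5% of the 3162 lower genes of the rescue comparison. Lower calls made up 30.3% of all genes tested in both. For MII oocytes the shared number was 177, or 60% of 295 and 6.67% of 2654, against 28.6% of all. For L2C embryos, in which 2933 of 12606 genes (23.3%) were lower in mDKO, it was 831, or 36% of 2306 and 27.2% of 3057, against 29.9% of all, a share near the background. In all, 94 genes were called in opposite directions here and in uninjected E2C embryos. Of the 1018 genes lower with Kdm3aHA than with mCherry, 183 (18%) were lower with Kdm3aWT than in control (5.65% of the 3241) and 265 (26%) were higher (14.2% of the 1866), against 29.6% lower and 17% higher among all genes tested.

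A larger share of X-linked than of autosomal genes was at least 2-fold lower, a description that was not tested. The X chromosome had 56 of 416 tested genes at least 2-fold lower with Kdm3aWT, and without the Xlr list 49 of 406 (12.1%). On the autosomes it was 836 of 10504 (7.96%), with single autosomes between 5.53% and 10%. Of 55 X-linked genes of the E2C-lower set, 38 (69.1%) were lower with Kdm3aWT, against 75.3% of the whole set. X-linked genes made up 8.6% of the set's members still lower and 11.7% of those not called lower, against 3.81% of all genes tested. Tceal8, Nxt2 and Cxcr3, described above, are among the 49.

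Markers of other cells moved in part with the groups. The 14 cumulus and granulosa markers summed to 244 and 230.4 TPM with Kdm3aWT and to 223 and 238 TPM with Kdm3aHA. The sums were 414 and 408 TPM with mCherry in mDKO embryos and 68.9 and 57.0 TPM in controls. Fst and Foxl2 were listed at 0 in both Kdm3aWT libraries, and Foxl2 was at 0 in both control libraries too. Most of the sum was Serpine2, a protease inhibitor also found in other cells, with 229.9 and 225 TPM with Kdm3aWT against 62.2 and 51.2 TPM in controls. The 8 sperm and spermatid markers summed to 7.76 and 14.5 TPM with Kdm3aWT against 33.1 and 44.8 TPM in controls. Prm1, Tnp1 and Tnp2 were at 0 in both Kdm3aWT libraries, and Prm1, Tnp1 and Smcp were at 0 in both control libraries. The 8 blood markers summed to 0.315 and 1.38 TPM with Kdm3aWT against 10.3 and 5.27 TPM in controls, and were highest with mCherry in mDKO embryos (34.3 and 18.8 TPM). The 8 markers of oocyte identity summed to 11299 and 10582.5 TPM with Kdm3aWT against 7596 and 8054 TPM in controls, and none was at 0. The part of these differences in the gene groups above was not tested.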

How the data were processed

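RNA was sequenced from pooled embryos or oocytes, and the values used are TPM per gene, deposited by the authors in tables of all libraries. Per the submitters' processing notes, the tools were RSEM 1.3.1, STAR 2.7.10b, SAMtools 1.9 and Bowtie2 2.3.4.1 on mm10, with no roles given. TPM holds no read number, so depth is unknown here and counting intervals were left out. All columns were matched to a sample by name, with 0 columns left unmatched.

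Genes with at least 1 TPM in at least 2 of the 8 injected E2C libraries were fitted together as log2(TPM + 1) with limma 3.58.1 in R 4.3.3 (empirical Bayes with a trend), and p-values were adjusted over all genes tested by Benjamini and Hochberg at 0.05. Fold changes on this scale understate the change of low genes. Each ± after a log2 difference is its standard error, with n = 2 libraries per group. A fit of 4 groups shares 1 estimate of the spread. Uninjected E2C, MII and L2C libraries were fitted separately by the same steps. An exact permutation test of 2 against 2 libraries cannot go below 0.333, so none is given. TruSeq Stranded mRNA was used for MII oocytes, per the labels' protocols, and no source used here gives the L2C kit, so each test stayed within a stage. The sorting of genes as newly present, rising or stored sets MII against E2C levels across these kits and is a description.

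The genes named are Kdm3a, Kdm3b and Jmjd1c, the 15 lowest and 15 highest called genes of at least 5 TPM in the higher group without overlap between groups, up to 4 called members of each list, 5 each of the largest and of the smallest differences in the sets called without injection, and 5 called in opposite directions. Predicted genes were left out of the highest and lowest. Other list members named in the text were chosen after their values were seen. The members and lists were chosen with earlier results of these data known. Gene lengths and GC content came from GENCODE M21 symbols (23376 matched), positions from RefSeq (24289 matched). Promoter sequences covered 76.5% of the genes tested, too few to compare promoter composition, which was left out. Tables were handled in Python 3.11.15 with pandas 2.3.3, and the fit was tested on simulated data. Alternatives were another pseudocount (0.1), no filter, a filter at 5 TPM, size-factor scaling, a replicate block, the 4 compared libraries alone, and each library left out in turn. The removal of the GC and length trend, and the counts of each list under every alternative, were added after seeing the data.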

Additional observations from a re-analysis of the deposited data

Results flagged for a closer look

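Of 134 named genes other than Kdm3a with a test, 15 differed between Kdm3aWT-injected and Kdm3aHA-injected mDKO embryos by limma, and those at 2-fold or more that were measurable in both groups are given here. Among them, 4 Zscan4 genes were higher with Kdm3aWT: Zscan4a by 1.76, Zscan4f by 1.497, Zscan4b by 1.40 and Zscan4d by 1.02 on the log2 scale. Gm2016, another early 2-cell gene, was higher by 1.34, with 19.4 and 28.7 TPM with Kdm3aWT against 9.67 and 7.80 TPM with Kdm3aHA. Tex15, the germline silencing factor, was higher by 1.05. Taf10, a subunit of TFIID and SAGA, had 458 and 188 TPM with Kdm3aWT against 24.1 and 46.4 TPM with Kdm3aHA, a difference of 3.09, and Scand1 had 65.2 and 38.3 TPM with Kdm3aWT against 5.24 and 17.3 TPM with Kdm3aHA, a difference of 2.25. The 2 Kdm3aWT libraries differed widely from each other for Taf10. Tceal8 was lower with Kdm3aWT than with Kdm3aHA (-2.19), as were Cstb (-1.81) and Cdk1, the mitotic kinase (-1.26).

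Some genes were higher with Kdm3aWT than in injected controls and lower in uninjected mDKO than in uninjected controls, and these differences between the experiments were not tested. Kdm3a itself, which was injected, is one of them (10.03). Cox5a, a subunit of cytochrome c oxidase, gave 3.64, with 1695 and 1436 TPM with Kdm3aWT against 164 and 93.5 TPM in injected controls, and 1655 and 1687 TPM in uninjected mDKO against 2121 and 2155 TPM in uninjected controls. Thrsp, a regulator of fat synthesis, gave 3.28, 1190005I06Rik 2.95 and Alyref2, an mRNA export adaptor, 2.90. Thrsp had 12.6 and 7.08 TPM with Kdm3aWT against 0.163 and 0 TPM in injected controls, and Alyref2 71.7 and 44.7 TPM with Kdm3aWT against 11.2 and 3.86 TPM in injected controls.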

How the results depend on the processing

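With 2 libraries per group, no value has more than 1 repeat, and TPM without depth gives no counting error. Calls between Kdm3aWT-injected mDKO and control embryos ranged from 3478 to 5044 with 1 library left out, and the lowest number was reached without control replicate 2. Same-numbered libraries did not deviate together in the injected groups (correlations between -0.10 and 0.05), so the replicate number was not taken as a pairing. In MII oocytes, with 2 pairs, the correlation was 0.28. The MII sets come from the fit without a block all the same, and whether the MII libraries were paired is not known. In the rescue comparison a replicate block gave 5048 calls (1841 higher, 3207 lower) and changed the call of none of the 135 named genes. Calls in other comparisons moved more. Kdm3aHA against mCherry gave 216 to 1469 calls with 1 library left out, against 1187, with 216 and 279 without mCherry mDKO replicates 1 and 2 and 632 without Kdm3aHA replicate 1. Uninjected E2C embryos gave 282 (without control replicate 2) to 3214 (without mDKO replicate 2), against 1600, 409 without a filter on low TPM and 2560 with the replicate block. MII oocytes gave 42 to 300, the lowest without mDKO replicate 1 and each library moving the count, against 458, 145 without the filter and 2143 with the block. The sets taken from these fits therefore depend on single libraries.

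Where the sets were called at any size of change, 681 of 924 E2C-lower genes (73.7%) and 177 of 295 MII-lower genes (60%) kept their direction with Kdm3aWT. So did 292 of 581 E2C-higher genes (50.3%) and 47 of 91 MII-higher genes (51.6%). At 2-fold or more the shares were 75.3%, 75.2%, 59.8% and 48.9%, in the same order. Among all genes tested 29.6% were lower and 17% higher. The shares of the E2C-lower and MII-lower sets include genes that passed the filter through the control libraries alone, and the number tested fell when a control library was left out. A filter at 5 TPM left 73 of 97 MII-lower genes, and it tests fewer genes. Left-out libraries moved the E2C-lower number between 317 and 450.

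The reversals were among genes chosen for lying near no difference. With size factors they were Plk2 (0.083), Pax2 (0.14), Pglyrp1 (0.16), Ergic1 (0.059), Rrp1 (0.12), Tmem171 (0.087), Abcb1b (0.12), Prmt3 (0.13), Rnf182 (0.10) and Stx7 (0.021). With the GC and length trend removed they were Plk2 (0.0051), Pglyrp1 (0.10), Tmem171 (0.023), Abcb1b (0.091), Prmt3 (0.11) and Rnf182 (0.033). Left-out libraries gave -0.18 to 0.15 for Pax2, -0.27 to 0.20 for Pglyrp1, -0.072 to 0.045 for Rrp1 and -0.12 to 0.063 for Prmt3. Crxos and Obox6 lost their calls without Kdm3aWT replicate 1 or without control replicate 2. The cause of these changes was not tested.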

Other observations

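Cell-cycle genes moved both ways. Of 48 tested, 15 (31.2%) were higher and 10 (20.8%) lower with Kdm3aWT than in controls, against 17% higher and 29.6% lower among all genes. Cdk1 had 10.2 and 13.99 TPM with Kdm3aWT, 27.7 and 32.5 TPM with Kdm3aHA, 22.8 and 22.5 TPM with mCherry and 45.2 and 49.9 TPM in controls, the lowest with Kdm3aWT, and it fell by 1.91 ± 0.16 against control. Ccna2, a cyclin of S phase and mitosis (2.06), Cdc20, an activator of the anaphase-promoting complex (2.00), and Pkmyt1, an inhibitory kinase of Cdk1 (1.74), rose, and none of the 3 passed in uninjected embryos (0.38, 0.36 and 0.86).

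Of 26 genes of H3K9 methylation, 7 (26.9%) were lower and 2 (7.69%) higher with Kdm3aWT, against 29.6% lower and 17% higher among all genes. Cbx5, which encodes HP1 alpha, had 6.23 and 6.64 TPM with Kdm3aWT against 20.5 and 20.4 TPM in controls (-1.53), and Suv39h1, a methyltransferase of H3K9, -0.76 on the log2 scale. Cbx1, for HP1 beta, was higher (1.36), as was Trim28, the KAP1 corepressor (0.69, adjusted p = 0.0398), whose call was lost without Kdm3aWT replicate 2, and without either replicate of mCherry-injected mDKO or control embryos, and with the GC and length trend removed. Size factors gave 3 higher and 3 lower, and 3 were lower without Kdm3aWT replicate 1 or either control replicate. Of 14 other histone demethylase genes, Jmjd6 (1.53), Kdm1b (0.83) and Kdm6b (0.74) were higher, and Phf8 (-0.80) and Kdm2b (-0.52) lower. These are 21.4% higher and 14.3% lower, against 17% higher and 29.6% lower among all genes. Kdm6b lost its call without Kdm3aWT replicate 1, without control replicate 2 and with the GC and length trend removed.

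The list counts that follow stand against 29.6% lower and 17% higher among all genes. Of 33 genes of maternal mRNA storage and clearance, 11 were lower and 6 higher (9 and 9 with size factors). Cnot6l, a deadenylase of the CCR4-NOT complex that acts on maternal mRNA, had 85.4 and 127 TPM with Kdm3aWT against 289 and 289 TPM in controls (-1.47), and Zcchc6, a terminal uridylyltransferase, gave -1.49. Of 25 p53 targets, 8 were lower and 4 higher, with Btg2 (-1.79) the lowest and Mdm2 (1.12) and Plk3 (1.12) the highest. Only 2 were higher without Kdm3aWT replicate 1 or control replicate 1 and 1 without control replicate 2, and Plk3 lost its call without Kdm3aWT replicate 1, without control replicate 2 and with the GC and length trend removed. Of 22 pluripotency and early lineage factors 5 were lower, Esrrg, Tfap2c, Klf4, Prdm1 and Gata3, and none was higher by limma (1 at an unadjusted p under 0.05). Size factors gave 3 lower and 2 higher, 3 were lower without control replicate 1, and Prdm1 lost its call without a filter on low TPM, with size factors, without Kdm3aWT replicate 1, without either control replicate and with the GC and length trend removed. Of 18 SUMO-pathway genes 6 were higher and 4 lower, of 15 metallothionein and zinc genes 2 were higher and 2 lower (4 and 0 with size factors), and of 19 interferon and RNA-sensing genes 1 was higher and 4 were lower (3 and 3 of 20 with size factors; 3 and 4 without Kdm3aWT replicate 1), with Cxcl10 (-1.48) the lowest. Hsd3b1, a steroid dehydrogenase, was present at 5.68 and 1.47 TPM with Kdm3aWT and 79.98 and 79.5 TPM with mCherry in mDKO embryos, and was listed at 0 with Kdm3aHA and in controls.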
